A study of Drosophila melanogaster with 6 samples.

Results

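Broad stretches of the assembled Drosophila chromosome arms that were listed as bound by the RNA-binding proteins hrp36 or hrp48 are described here. The members were chosen by peak width and sequence name: every peak of 4000 bp or more on 2L, 2R, 3L, 3R, 4 or X, leaving out heterochromatic (Het) and unplaced (U, Uextra) sequence. This gave 170 of the 1020 hrp36 peaks and 163 of the 938 hrp48 peaks, 333 of 1958 in all. Peaks of the arms under 4000 bp, 176 in the hrp36 list and 55 in the hrp48 list, are called narrow below and serve as the comparison.

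The chromatin came from S2 cells, a line of Drosophila melanogaster set up from late-stage material aged 20 to 24 hours per the labels, with no treatment or genotype named. After 10 minutes in 1.8% formaldehyde it was sheared and immunoprecipitated with antibodies against hrp36 (2 samples) or hrp48 (2 samples), beside 2 inputs of 10%. The deposited data are 1 list of peak positions per antibody in build dm3, so no peak has a height, a read count or a value per replicate, and depth is unknown. All tests take peaks as units and compare these lists, which share many sites. They carry no replicate error. A peak list gives no marker by which the cell type could be checked, and no input list was used here.

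Both proteins are heterogeneous nuclear ribonucleoproteins, which coat newly made transcripts and act in splicing, export and localisation of RNA. In flies, hrp36 is a component of the omega speckles, nuclear stores of such proteins built on a noncoding RNA, and hrp48 represses splicing of the P transposable element and takes part in localising oskar RNA. ChIP recovers such proteins through RNA and other proteins still attached to the template as well as through DNA. Fly chromosome arms are gene-rich euchromatin towards the tip and turn into repeat-rich pericentric heterochromatin towards the centromere, and they carry scattered copies of transposable elements, which come in families of similar length. No genome or annotation of dm3 was used here, so the sites are given by position and without gene or element names.

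The wide peaks held most of the arm sequence covered by either list. In the hrp36 list they made up 49.1% of the arm peaks and 77.8% of the covered arm sequence (1170 kb), and in the hrp48 list 74.8% and 88.6% (1107 kb). Since width chose these peaks, the shares are descriptions. Widths ran from 4113 to 15253 bp for hrp36 with a median of 6956 bp and quartiles at 5644 and 8008 bp. For hrp48 they ran from 4026 to 13658 bp with a median of 7051 bp and quartiles at 5584 and 8012 bp. At the limit, the hrp36 peaks just inside were 4113 and 4182 bp wide and those just outside 3954 and 3895 bp. For hrp48 the corresponding widths were 4026 and 4199 bp inside and 3982 and 3967 bp outside. The shared site on X at 19927082 to 19931263 (hrp36) and 19927060 to 19931258 (hrp48) was among those just inside in both lists.

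Widths were not spread evenly above 4 kb but gathered in a few bands. The bands below, in steps of 500 bp, were set after the widths had been seen. The fullest lay from 7500 to below 8500 bp, with 65 hrp36 peaks (38.2% of the wide peaks) and 64 hrp48 peaks (39.3%). A further band at 5500 to below 6000 bp held 22 hrp36 and 28 hrp48 peaks, and one at 4500 to below 5000 bp held 23 and 22. Between them the counts per step were lower, with 9 hrp36 and 5 hrp48 peaks at 5000 to below 5500 bp. There were 13 and 9 at 6000 to below 6500 bp, 10 and 9 at 6500 to below 7000 bp, and 6 and 8 at 7000 to below 7500 bp. At 8500 bp or more there were 13 hrp36 and 10 hrp48 peaks. Each of the 3 full bands was found on all 5 long arms in both lists.

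**Figure D1:**
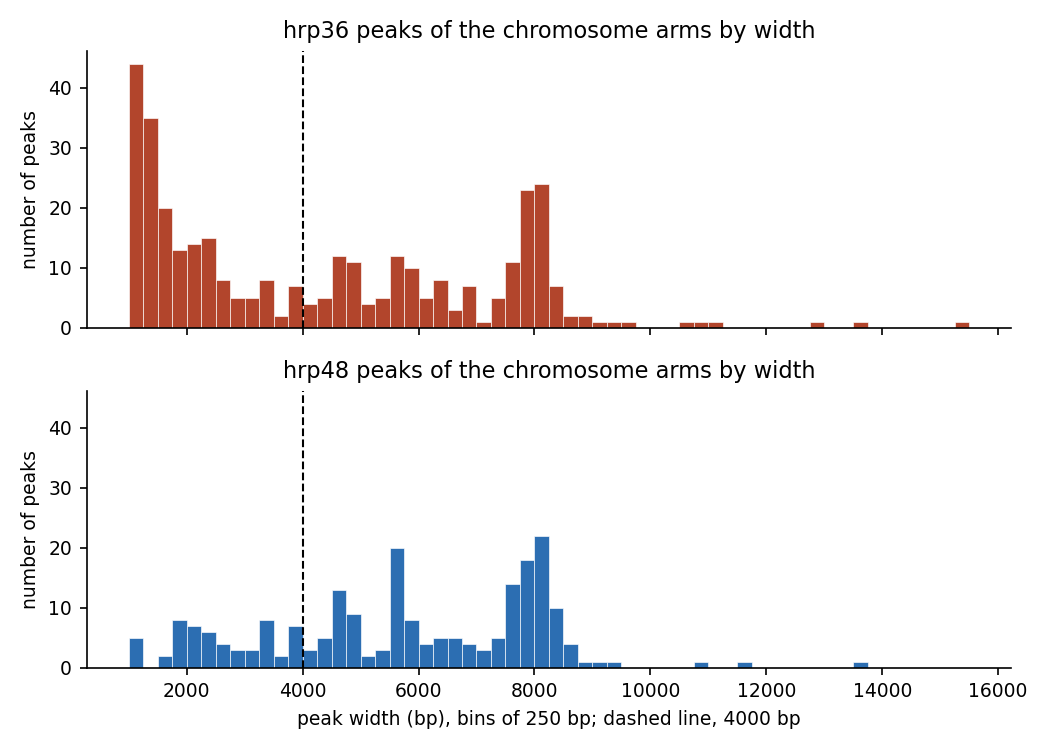
Number of arm peaks (vertical axis) by peak width in bp (horizontal axis, bins of 250 bp) in the hrp36 list (upper panel) and the hrp48 list (lower panel), with the 4000 bp limit dashed. Both lists show heaps near 4.5 to 5 kb, 5.5 to 6 kb and 7.5 to 8.5 kb, and the hrp36 panel also has a tall heap of narrow peaks under 2 kb.

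Recurrence of width was not seen at the level of single base pairs, a scale that the peak borders may not resolve. Of the 170 hrp36 peaks, 92 (54.1%, exact 95% interval 46.3 to 61.8%) had another wide arm peak of the same list within 10 bp in width, and of the 163 hrp48 peaks 87 did (53.4%, 45.4 to 61.2%). These intervals cover the number of peaks only. Such shares depend on how crowded the bands are, so pairs were also counted by their difference in width. Among 14365 pairs of hrp36 peaks, 67 differed by under 10 bp, against a mean of 83.2 per 10 bp step up to 100 bp (63 to 97). Among 13203 pairs of hrp48 peaks there were 76 under 10 bp, against a mean of 81.3 (65 to 94). Thus the first step was no fuller than the steps after it. At sites wide in both lists, the 2 widths differed by a median of 65 bp. A step of 10 bp may therefore be too fine for these widths, and the count cannot decide how exactly they recur. Exactly equal widths were found in 2 pairs of hrp36 peaks and 7 pairs of hrp48 peaks, such as the hrp48 peaks of 8072 bp on 2L and on 3L.

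**Figure D2:**
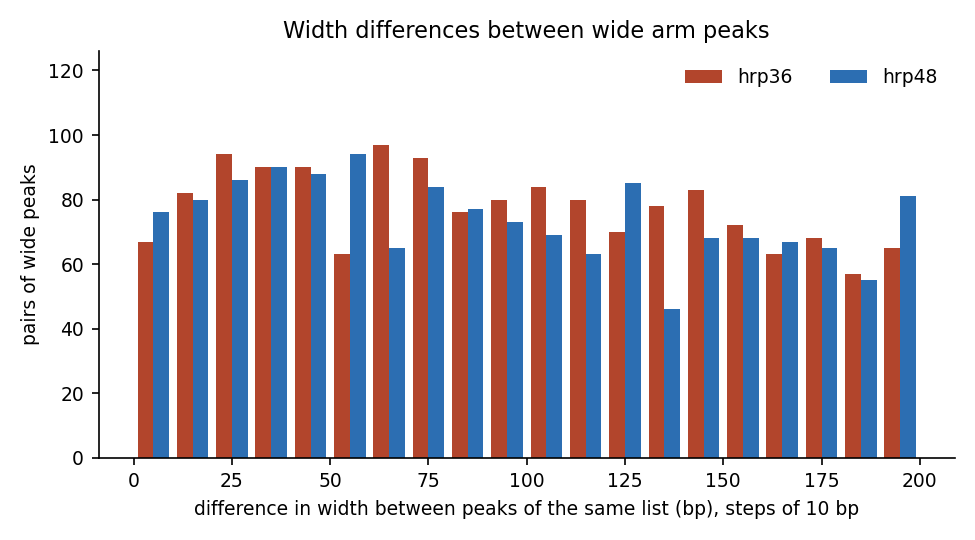
Number of pairs of wide arm peaks of the same list (vertical axis) by their difference in width in steps of 10 bp up to 200 bp (horizontal axis), for hrp36 (red) and hrp48 (blue). The first step holds 67 hrp36 and 76 hrp48 pairs and does not stand above the steps beside it.

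Windows of 50 bp in width, taken from the fullest down and counting overlapping peaks of the 2 lists as 1 site, held 15 sites at most. The fullest window, 8024 to 8074 bp, held 15 sites on 2L, 2R, 3L and 3R, and 14 of these were in both lists. Its first sites by position were on 2L: one at 7976531 to 7984588 for hrp36 (8058 bp) was listed at 7976724 to 7984386 for hrp48 (7663 bp). The next, at 8594046 to 8602373 (8328 bp), was at 8594005 to 8602047 for hrp48 (8043 bp). Another, at 11713202 to 11721300 (8099 bp), was 8072 bp wide in the hrp48 list, and the fourth was in the hrp48 list alone, at 20575955 to 20584008 (8054 bp). In this window 1 of the 15 sites had both its hrp36 and its hrp48 width inside, and over the 4 fullest windows this held for 2 of 48 sites, so the counts of sites rest on the width in either list.

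The window from 5742 to 5792 bp held 12 sites on all 5 long arms, 11 of them in both lists. On 2L these were at 8013323 to 8019098 (hrp36 5776 bp, hrp48 5630 bp), at 11563401 to 11569177 (5777 and 5631 bp), at 14803581 to 14809364 (5784 and 5706 bp) and at 17819677 to 17825482 (5806 and 5782 bp). In each of these 4 the hrp36 peak was the wider.

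The third window, 7682 to 7732 bp, held 11 sites on 2L, 3L and X, all in both lists, and 4 of them lay in the centromere-proximal 10% of their arm. Its first sites were on 2L, at 15586108 to 15593851 (hrp36 7744 bp, hrp48 7706 bp), at 16153386 to 16161183 (7798 and 7729 bp), at 19147038 to 19154769 (7732 and 7766 bp) and at 21645624 to 21653481 (7858 and 7688 bp). The fourth, 7968 to 8018 bp, held 10 sites on 2L, 2R, 3L and 3R. It began with 2L at 4601452 to 4609381 (hrp36 7930 bp, hrp48 7977 bp) and at 19347218 to 19355301 (8084 and 8018 bp), followed by 2R at 266656 to 274642 (7987 and 7928 bp) and at 3701925 to 3709915 (7991 and 7299 bp). The next 4 windows held 6 to 8 sites each. By the same measure, 2 of 15 sites were proximal in the first window, 1 of 12 in the second and 1 of 10 in the fourth. In each of the next 4 windows 2 or 3 sites were. Over all wide peaks of the long arms the proximal share was 24.9% for hrp36 and 24.7% for hrp48.

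The bands differed in their median position along the arms. Position was measured from the peak's middle to the centromere-proximal end, as a percent of the arm's extent, here its length up to the last listed base. Peaks of 5500 to below 6000 bp were at a median of 63.6% (hrp36) and 54.1% (hrp48), and those of 7500 to below 8500 bp at 49.1% and 50.8%. The other bands had medians nearer the centromere. These were 16.2% for hrp36 and 14.4% for hrp48 from 4000 to below 5000 bp. From 5000 to below 5500 bp they were 25.7% and 12.4%, over 9 and 5 peaks. From 6000 to below 7500 bp they were 25.3% and 24.6%, and from 8500 bp 21.1% and 13.1% (12 and 9 peaks). Over all wide peaks the medians were 31.7% and 32.2%. The band medians include peaks of a dense stretch of 2L described below, at 5.28 to 6.31%, and are not given without it. In the step from 6500 to below 7000 bp the medians were 15% for 10 hrp36 peaks and 55.4% for 9 hrp48 peaks. This gap rests partly on shared sites whose 2 widths fell on either side of the step's limits. Of 9 hrp36 peaks in the step with a wide hrp48 partner, 6 had that partner in it. The 3L site at 99.6%, for example, was 6992 bp wide for hrp48 and 9378 bp for hrp36. Of the 32 hrp36 peaks of 4000 to below 5000 bp, 10 were on X, against 7 of the 65 peaks of 7500 to below 8500 bp, and in the hrp48 list it was 10 of 30 against 8 of 64. Because the bands were drawn from the widths themselves and both lists hold largely the same sites, no test was made between them.

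Most wide sites were in both lists. Joining overlapping peaks of the lists gave 184 sites with a wide peak, of which 149 were wide in both. At 2 sites the peak was wide for hrp36 and narrow for hrp48, at 2 the reverse was found, 19 were in the hrp36 list alone and 12 in the hrp48 list alone. A partner in the hrp48 list, overlapping by at least 1 bp, was found for 151 of 170 wide hrp36 peaks (88.8%, 95% interval 83.1 to 93.1%), where all hrp36 arm peaks together gave 57.2%. Of the wide hrp48 peaks, 151 of 163 (92.6%, 87.5 to 96.1%) overlapped an hrp36 peak, where all hrp48 arm peaks gave 90.8%.

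The contrast with narrow peaks was large for hrp36 and was not detected for hrp48. Narrow hrp36 peaks overlapped an hrp48 peak in 47 of 176 cases (26.7%), which is 62.1 percentage points below the wide ones (two-sided Fisher's exact test, Benjamini-Hochberg adjusted over 5 tests, p = 4.39e-33). Narrow hrp48 peaks overlapped an hrp36 peak in 47 of 55 cases (85.5%, 73.3 to 93.5%), 7.18 points below the wide ones (Fisher's exact test, adjusted p = 0.289). The hrp36 contrast was known from earlier results on these lists. It is also bound to the number of narrow peaks, 176 for hrp36 against 55 for hrp48. Narrow peaks mostly overlapped narrow peaks (45 pairs), so most narrow hrp36 peaks could have no such partner. The test does not separate width from this difference between the lists. The shared portion of the wide peaks themselves was 3.81 points higher for hrp48 than for hrp36 (Fisher's exact test, adjusted p = 0.326), a test of lists that are not independent. Elsewhere in the genome, wide peaks of mapped heterochromatic sequence were shared in 37 of 38 cases for hrp36 and 35 of 40 for hrp48. On unplaced sequence all 13 wide hrp36 and all 14 wide hrp48 peaks were shared. The share over all peaks of these sequences is not given here, so these counts do not tell width apart from place.

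At sites wide in both lists, the peaks had nearly the same width. The hrp36 and hrp48 peak of a site differed by a median of 65 bp in width (149 sites), while peaks of different sites differed by a median of 1475 bp. The overlap covered a median of 99.0% of the wider peak over all 154 overlapping pairs with a wide member (interquartile range 97.2 to 99.5%), and in 138 pairs it covered at least 90%.

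**Figure D3:**
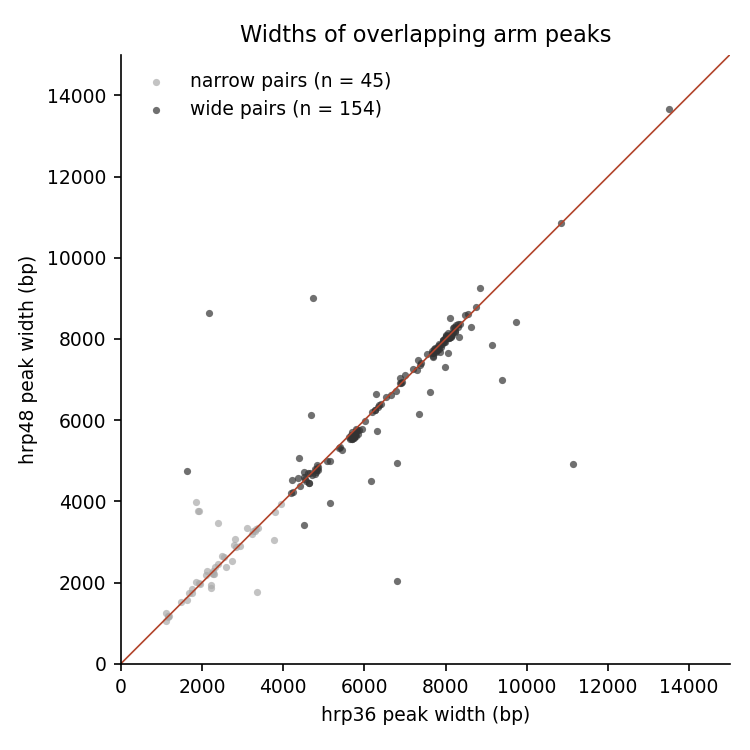
Width in bp of the hrp48 peak (vertical axis) against that of the hrp36 peak (horizontal axis) for each overlapping pair of the arms, with wide pairs dark (n = 154), narrow pairs grey (n = 45) and the line of equal widths in red. Most pairs lie on the line, with dense groups near 4.7, 5.7 and 8 kb, and most pairs far from it have a border over 500 bp apart.

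Borders of the 2 lists lay close together. Over the 308 borders of the 154 pairs, the hrp36 and hrp48 border lay a median of 36 bp apart, with quartiles at 15 and 78 bp, and 246 (79.9%, 75 to 84.2%) were within 100 bp. The 45 narrow pairs also had a median of 36 bp, with 80% of 90 borders within 100 bp, so that the median distance in bp was the same in both width classes. Relative to the wider peak, both borders together were off by a median of 1.14% in wide pairs and 4.23% in narrow pairs. Left and right borders were alike, with medians of 35.5 and 37.5 bp. Off the arms the 640 overlapping pairs had a median of 18 bp.

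**Figure D4:**
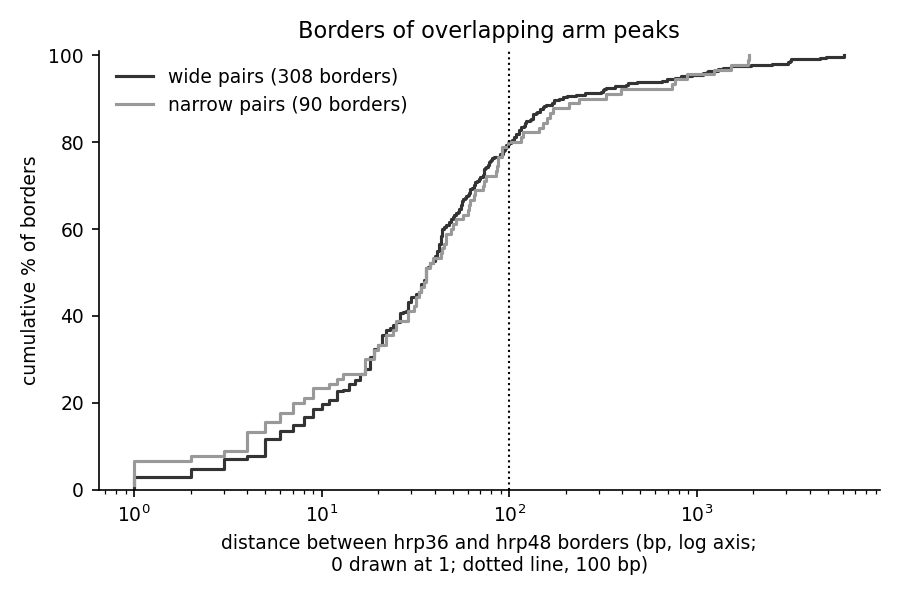
Cumulative percent of borders (vertical axis) by the distance between the hrp36 and the hrp48 border in bp (horizontal axis, log scale, 0 drawn at 1), for wide arm pairs (308 borders, dark) and narrow arm pairs (90 borders, grey). The curves run together and both reach about 80% at 100 bp (79.9% and 80%).

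The closest match was on X, where hrp36 was listed at 2738756 to 2746618 and hrp48 at 2738759 to 2746620, 3 and 2 bp apart at the left and right border. Next came 2L, at 347566 to 355737 and 347568 to 355742 (2 and 5 bp apart), and 3L, at 402316 to 410138 and 402313 to 410132 (3 and 6 bp apart). These 3 sites were 7820 to 8175 bp wide, within the fullest band.

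In 18 of the 154 pairs a border lay more than 500 bp apart. Of these, 17 had a single such border, 11 on the left and 6 on the right, and in 10 the opposite border still matched within 100 bp. The hrp36 peak was the wider in 13 of the 18. The largest summed difference was on 2R, where hrp36 was listed at 827295 to 829460 (2166 bp) and hrp48 at 821186 to 829825 (8640 bp). Both borders were far apart only on 2L, where hrp36 at 21750342 to 21761492 (11151 bp) enclosed hrp48 at 21753513 to 21758437 (4925 bp). A single wide peak overlapped more than 1 peak of the other list, hrp36 on 2L at 21604703 to 21611495, which spanned hrp48 peaks at 21604607 to 21609547 and at 21609614 to 21611640. The other pairs of a wide with a narrow peak were on 2R at 7536330 to 7540850 (hrp36 4521 bp, hrp48 3421 bp), on 3R at 10956079 to 10961238 (5160 and 3967 bp) and on 3L at 22974845 to 22976478 (1634 and 4743 bp).

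The sign of the small width difference varied with the band. Over the 149 pairs of 2 wide peaks, hrp36 was wider in 94 and hrp48 in 55. Where the mean of the 2 widths was from 5500 to below 6000 bp, hrp36 was wider in 24 of 24 pairs, with a median excess of 112 bp and quartiles at 73 and 163 bp. At these sites the hrp36 border lay further out on the left in 22 and on the right in 21 pairs, by medians of 53 and 52 bp. The pairs were spread over the genome, with 8 on 2L, 5 on 2R, 4 each on 3L and 3R and 3 on X. One of them is the split 2L site just described, and without it the excess ran from 8 to 191 bp over 23 pairs. In the other 125 pairs hrp36 was wider in 70 (56.0%), by a median of 10 bp. From 7500 to below 8500 bp it was wider in 39 of 63 pairs (median 21 bp), from 6000 to below 7500 bp in 11 of 24 (median -10 bp), and from 4000 to below 5000 bp in 12 of 23 (median 10 bp). From 5000 to below 5500 bp it was wider in 6 of 7 (median 87 bp), and from 8500 bp in 2 of 8 (median -60 bp). This pattern was seen in the same pairs that describe it, so no test was made.

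Examples show large values of this excess and the smallest one. On 2R at 15844708 to 15850460 the hrp36 peak was 5753 bp wide and the hrp48 peak, at 15844726 to 15850287, 5562 bp. On 3R at 15935020 to 15940820 the widths were 5801 and 5620 bp, on X at 5820782 to 5826621 they were 5840 and 5663 bp, and on 3L at 14461276 to 14466975 they were 5700 and 5541 bp. The smallest excess was on 2L at 3649541 to 3655247, with 5707 and 5699 bp. These sites were picked after their values were seen. Those on 2R, 3R and X had the largest excess of their arm, while the median over the 23 pairs without the split site was 102 bp.

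Wide peaks were listed from the centromeric to the distal part of each long arm. Per Mb of extent, 2L held 2.13 hrp36 and 1.96 hrp48 peaks, X 1.47 and 1.43, 2R 1.37 and 1.28, 3L 1.23 and 1.23, and 3R 1.03 and 1.03. Sites with a wide peak were a median of 200 kb apart on 2L and 573 kb apart on 3L. The longest stretches without one were 4.76 Mb on 2R (15850461 to 20615176) and 4.45 Mb on 3R (17594539 to 22041148), and on X no stretch exceeded 1.82 Mb. Chromosome 4, small and largely heterochromatic, had a single wide site, at 340306 to 349060 for hrp36 (8755 bp) and 340285 to 349077 for hrp48 (8793 bp).

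**Figure D5:**
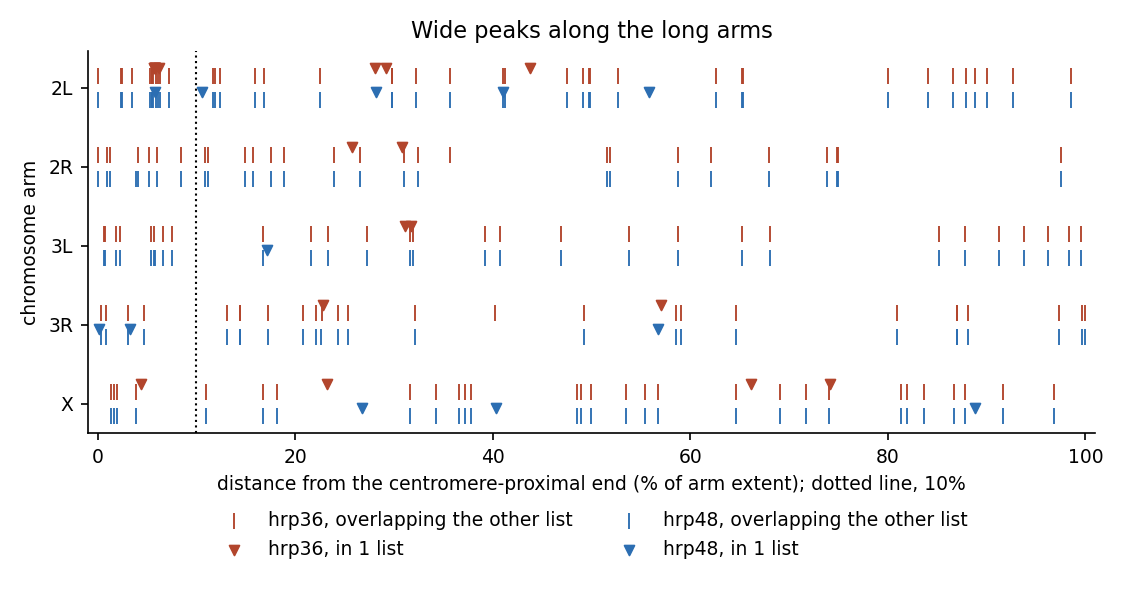
Position of each wide peak on the 5 long arms (vertical axis) as the distance from the centromere-proximal end in percent of the arm's extent (horizontal axis), for hrp36 (red) and hrp48 (blue), with bars for peaks that overlap the other list and triangles for peaks in 1 list. Bars of the 2 colours pair up along all arms, and the hrp36 triangles crowd on 2L left of the dotted line at 10%.

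Taking the 10% of each long arm nearest the centromere as proximal, 42 of 169 wide hrp36 peaks (24.9%, 18.5 to 32.1%) and 40 of 162 wide hrp48 peaks (24.7%, 18.3 to 32.1%) were proximal. All arm peaks together gave 24.2% and 29.6%. The next 10% held 19 and 21, and each further step of 10% held 7 to 18 hrp36 and 6 to 16 hrp48 peaks. Narrow hrp36 peaks were proximal in 41 of 174 cases (23.6%), which did not differ detectably from the wide ones (difference 1.29 points, Fisher's exact test, adjusted p = 0.802). Narrow hrp48 peaks were proximal more often, in 24 of 54 cases (44.4%, 30.9 to 58.6%), so that the wide share was lower by 19.8 points (Fisher's exact test, adjusted p = 0.0234). That call was lost when peaks were merged within 10 kb (-7.46 points, adjusted p = 0.418), with a proximal part of 5% (-9.88 points, adjusted p = 0.241) or 20% (-8.64 points, adjusted p = 0.333), and with a width limit of 3000 bp (-17.2 points, adjusted p = 0.16, all by Fisher's exact test).

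The proximal share differed between arms and rested in part on a short stretch of 2L. On 2L it was 36.7% for hrp36 and 28.9% for hrp48, against 26.7 and 30% on 3L and 24.1 and 29.6% on 2R. It was lowest on X (15.2 and 12.5%) and 3R (14.3 and 21.4%). Between 21555819 and 21796881 on 2L lay 13 of the 18 proximal hrp36 peaks of that arm and 8 of the 13 proximal hrp48 peaks. Without that stretch of 2L the share there was 13.9% for hrp36 (5 of 36) and 13.5% for hrp48 (5 of 37), and the share over the 5 arms was 18.6% and 20.8%. The most proximal sites were on 2L at 23004390 to 23009759 (hrp36 5370 bp, hrp48 5316 bp), on 2R at 4260 to 9937 (5678 and 5583 bp), on 3L at 24235342 to 24241036 (5695 and 5594 bp) and on X at 22099063 to 22103913 (4851 and 4771 bp). On 3R the most proximal hrp36 peak was at 96465 to 102834, and the most proximal hrp48 peak, in that list alone, at 31540 to 37712.

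That stretch of 2L was also where the lists parted most. The hrp36 list had 13 wide peaks there (90.1 kb) and the hrp48 list 8 (45.7 kb). In both lists 7 of these were shared, leaving 6 in the hrp36 list alone and 1 in the hrp48 list alone. From 21674454 to 21697975, 3 hrp36 peaks of 4250, 12813 and 6044 bp followed one another, the first pair 63 bp apart, with no hrp48 peak overlapping them. Just before them lay the hrp48 peak at 21669330 to 21674005 (4676 bp), which ended 448 bp short of the nearest hrp36 peak. Further along, the lists met again at 21717253 to 21725150 (hrp36, 7898 bp) and 21717349 to 21725153 (hrp48, 7805 bp).

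Wide peaks in a single list were few and had a partner nearby only in some cases. The 19 hrp36 ones were 4113 to 15253 bp wide (median 6044 bp), and 9 of them were on 2L, 4 on X and 2 each on 2R, 3L and 3R. Of the 19, 9 had another hrp36 peak within 10 kb, and 6 of these 9 lay in that stretch of 2L. Outside the stretch it was 3 of 13, beside 13 of 144 shared hrp36 peaks, and for hrp48 it was 1 of 11 beside 14 of 144. The nearest hrp48 peak was within 1 kb for 1 of the 19 hrp36 peaks and over 100 kb away for 6. The widest were on 2R at 6509627 to 6524879 (15253 bp), on 2L at 21678767 to 21691579 (12813 bp) and on X at 21405144 to 21415688 (10545 bp). The 12 hrp48 ones were 4026 to 11595 bp wide (median 5852 bp), with 5 on 2L, 3 each on 3R and X, 1 on 3L and 0 on 2R, where all 27 wide hrp48 peaks were shared. Of these 12, 2 lay within 1 kb of an hrp36 peak and 6 over 100 kb from one. The widest, on 2L at 13574818 to 13586412 (11595 bp), lay 33 bp from an hrp36 peak. Next were 3R at 15451675 to 15460167 (8493 bp) and 2L at 20575955 to 20584008 (8054 bp), the latter 264982 bp from any hrp36 peak. The fullest width band, 7500 to below 8500 bp, held 3 of the 19 and 3 of the 12, against 62 of 151 and 61 of 151 shared peaks.

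Outside the arms, wide peaks were fewer in number and the fullest width band held a smaller share of them, a difference that was not tested. On mapped heterochromatic sequence 38 of 66 hrp36 peaks (57.6%) and 40 of 77 hrp48 peaks (51.9%) were 4000 bp or wider. That share was above the arm share for hrp36 (49.1%) and below it for hrp48 (74.8%). In each list 9 of these wide heterochromatic peaks fell from 7500 to below 8500 bp (23.7% and 22.5%). On unplaced sequence 13 of 608 hrp36 peaks (2.14%) and 14 of 643 hrp48 peaks (2.18%) were as wide. Unplaced scaffolds can be shorter than a wide peak, and their lengths were not used here.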

How the data were processed

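Per the labels, ChIP-seq libraries of S2 cells were made from 2 hrp36, 2 hrp48 and 2 input samples. Build dm3, MACS 1.4.2 and Bowtie2 2.2.2 stand in the submitters' processing notes. These notes, as used here, state no settings, pooling of replicates or control. The authors deposited 1 list of peak positions per antibody, without a score per peak, so the stricter threshold was replaced by other width limits. The reads were not used here.

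The members, width bands and lists were chosen with earlier results of these data known. Starts were read as 0-based and printed as 1-based. Overlap means at least 1 bp. Fisher's exact test, two-sided (scipy 1.17.1), was applied to the 5 planned differences in share, with Benjamini-Hochberg adjustment and a threshold of 0.05, and intervals are Clopper-Pearson at 95%. Zelen's exact test of equal odds ratios compared these differences between lists and was added after seeing the data. Code was tested on simulated peaks. Sites were named by a rule: the first 4 sites of the 4 fullest width windows, chromosome 4, the 3 widest per list in a single list, extreme borders, the width limit, the most proximal site per arm and split peaks. Sites of the 2L stretch and of the 5500 to 6000 bp band were added after their values were seen.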

Additional observations from a re-analysis of the deposited data

Results flagged for a closer look

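Wide and narrow arm peaks differed in overlap by 62.1 percentage points in the hrp36 list and by 7.18 in the hrp48 list. The difference between these contrasts was 54.9 points, and the odds ratios of the 2 lists differed (Zelen's exact test, adjusted over 2 tests, p = 1.08e-04). Both lists had 151 wide and 47 narrow shared peaks. The contrasts thus differ only through peaks of a single list, 19 wide and 129 narrow for hrp36 against 12 and 8 for hrp48. This first test therefore cannot tell a difference between the antibodies apart from the number of narrow peaks in each list. In the proximal share, wide minus narrow was 1.29 points for hrp36 and -19.8 points for hrp48. These contrasts differed by 21 points, and the odds ratios differed past the threshold (Zelen's exact test, adjusted p = 0.0225). Both tests were added after seeing the data, treat peaks that the lists share as independent, and were not repeated under other settings. The second rests on 54 narrow hrp48 peaks, and the hrp48 contrast behind it lost its call with peaks merged within 10 kb.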

How the results depend on the processing

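Of 53 alternatives to 8 results, 50 were planned and 3, on the peak's middle, were added after seeing the data. Of the 36 alternatives to the 5 tests, 29 kept direction and side of the threshold. The hrp36 overlap contrast kept its call in all 8 it was given, from 55.5 to 66.6 points (Fisher's exact test, adjusted p at most 4.85e-26). In each of these the hrp36 list still held more narrow peaks than the hrp48 list. The alternatives therefore cannot separate width from that difference between the lists. Contrasts that were not past the threshold turned in sign in 3 cases: hrp48 overlap to -0.718 points with a limit of 3000 bp, and the hrp36 proximal share to -1.4 points with 5000 bp and -2.24 without the dense 2L stretch. The hrp48 proximal contrast lost its call as -9.88 points (proximal 5%), -8.64 (20%), -17.2 (3000 bp) and -7.46 (merged peaks); the cause was not tested. The median border difference ranged from 35 to 36 bp. By construction, recurring widths moved with the tolerance, to 35.9% (hrp36) and 36.2% (hrp48) within 5 bp and to 77.6% and 73% within 20 bp. No paired analysis was possible because each antibody has 1 list and no value per replicate, and for the same reason no replicate could be left out. Depth, enrichment and threshold of the lists are unknown, so a missing peak cannot be told apart from a weak one.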
